A study of Mus musculus with 4 samples.

Results

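The 47 genes described here encode the machinery that brings secreted and membrane proteins into the endoplasmic reticulum (ER), folds them there, removes those that misfold and ships the rest towards the Golgi, together with the sensors and factors of the ER stress response. They were taken by symbol from a named list and all 47 were found among the 19991 genes of the deposited TPM table. All 47 also passed the low-count filter and stood among the 20950 genes tested. By role they comprised 15 chaperones and folding enzymes, 14 genes of translocation and signal cleavage, 6 of ER-associated degradation, 7 of vesicle transport and 5 stress sensors and factors.

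RNA was sequenced from whole mouse uterus on gestational day 4, near the time of implantation. The 2 knockout libraries came from mice with Cre recombinase at both copies of Prss29 and floxed Pgr (Prss29Cre/Cre;Pgrf/f, named Pgr gecKO), and the 2 control libraries came from wild-type mice. Prss29 encodes a serine protease of the uterine glands, so its Cre is meant to remove the progesterone receptor gene from gland epithelium only, in a tissue where most of the RNA comes from other cells. The controls are labelled WT, with no Cre or floxed allele named for them, so an effect of Cre, of the altered Prss29 locus or of strain cannot be told apart from that of Pgr. The labels name no age or strain, and do not say whether each library came from its own animal. P-values therefore measure the spread between these libraries, which may be technical in part.

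A secreted protein enters the ER through the SEC61 channel while its signal peptide is cut off, and it is then folded with the help of chaperones such as BiP, calnexin and calreticulin and of protein disulfide isomerases. Unfolded protein in the lumen activates the sensors IRE1 (Ern1), ATF6 and PERK, and the factors XBP1, ATF6 and ATF4 then raise transcription of chaperone, degradation and transport genes. Uterine glands secrete heavily into the lumen around implantation, and the stroma and the smooth muscle of the uterus also make much secreted matrix.

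Several of these genes share a promoter sequence through which ATF6 and XBP1 are known to act with the CCAAT-binding factor NF-Y, the ER stress element, spelled CCAAT, then 9 bases of any kind, then CCACG, and searched on both strands. Promoter sequences from RefSeq (build GRCm38.p6, an older build than the GRCm39 named in the submitters' processing notes) were matched by symbol for 37 of the 47 genes, and the 250 bases before each start site were searched. The element was found in 8 of the 37 genes, of which 7 are chaperones or folding enzymes and 1 is the degradation gene Syvn1, and it stood in 0.113% of all 32851 promoters and in 0.132% of the 21263 promoters of protein-coding genes. The stretches holding it are given 5′ to 3′ on the strand of the gene, with the element in capitals. In Calr, in Creld2 and in the second stretch of Hsp90b1 the element lies on the opposite strand and so begins with CGTGG.
Hspa5, chr2:34771995-34772073, plus strand: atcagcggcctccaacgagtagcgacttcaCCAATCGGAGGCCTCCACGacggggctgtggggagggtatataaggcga
Hsp90b1, chr10:86705608-86705686, minus strand: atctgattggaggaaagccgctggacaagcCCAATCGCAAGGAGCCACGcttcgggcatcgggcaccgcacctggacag
Hsp90b1, chr10:86705503-86705581, minus strand: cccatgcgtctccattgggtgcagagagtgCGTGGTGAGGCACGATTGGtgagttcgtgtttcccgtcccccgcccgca
Calr, chr8:84847045-84847123, minus strand: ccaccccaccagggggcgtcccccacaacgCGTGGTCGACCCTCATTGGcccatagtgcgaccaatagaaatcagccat
Canx, chr11:50325770-50325848, minus strand: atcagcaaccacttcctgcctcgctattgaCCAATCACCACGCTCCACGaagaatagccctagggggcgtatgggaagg
Pdia6, chr12:17266461-17266539, plus strand: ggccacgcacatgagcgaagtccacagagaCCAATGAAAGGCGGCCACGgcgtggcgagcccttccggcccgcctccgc
Dnajc3, chr14:118937797-118937875, plus strand: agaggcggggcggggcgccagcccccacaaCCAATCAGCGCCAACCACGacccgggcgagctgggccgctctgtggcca
Creld2, chr15:88819490-88819568, plus strand: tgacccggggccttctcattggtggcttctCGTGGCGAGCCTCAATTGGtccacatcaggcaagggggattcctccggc
Syvn1, chr19:6046502-6046575, plus strand: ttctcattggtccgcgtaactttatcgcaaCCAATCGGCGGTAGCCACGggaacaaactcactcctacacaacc

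The unfolded protein response element, spelled TGACGTGG and known as a site for XBP1 and ATF6, was found in 2 of the 37 genes, both of vesicle transport, against 0.563% of all promoters. These are shown because the element was found in 0 of the 13 chaperone promoters searched. In Kdelr3 it lies on the opposite strand.
Sec24d, chr3:123267440-123267495, plus strand: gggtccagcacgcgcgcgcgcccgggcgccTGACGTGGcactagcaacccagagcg
Kdelr3, chr15:79516348-79516407, plus strand: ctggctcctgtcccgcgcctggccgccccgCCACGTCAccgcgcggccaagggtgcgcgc
The letters TGATGNAAT, a form of the site through which ATF4 acts, were found in 0 of the 37 and in 0.816% of all promoters. Each match is a stretch of letters and not a measured binding site.

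All 4 libraries had between 29932153 and 35149834 counts. Libraries of one genotype were not the most alike: the chi-square statistic of their counts over genes, per degree of freedom, was 91 between the knockouts and 95.4 between the controls, against 45.3 for knockout 1 with control 2, 69.5 for knockout 1 with control 1, 75.4 for knockout 2 with control 1 and 133 for knockout 2 with control 2. Pgr stood at 130 and 146 CPM (the share of a library's counts that fell on a gene, with library sizes scaled by TMM) in the knockout libraries, against 141 and 139 CPM in the controls. Stroma and muscle transcribe Pgr as well, and reads from every exon were summed, so this value cannot show whether the gland cells lost it. Prss29 had 0 and 0 counts in the knockouts, against 1524 and 190 in the controls. Summed over fixed marker lists, all 8 epithelial, all 9 stromal and all 8 smooth muscle markers were present in every library, as a whole uterus should show. Gland markers summed to 154 to 159 TPM (a level relative to gene length) in the knockouts, against 420 to 460 TPM in the controls. The control sums were close although single gland markers differed between the controls in opposite directions. Prss29 stood at 118 and 14.6 TPM in controls 1 and 2, and Prss28, Lif and Ttr were also higher in control 1. Spink1 stood at 118 and 256 TPM, and Foxa2, Cxcl15 and Sox9 were also higher in control 2. Wfdc3 was near equal in both. Plasma and B cell markers summed to 139 to 152 TPM in the knockouts, against 764 to 790 TPM in the controls. In bulk tissue, fewer cells of a type and less RNA per cell cannot be told apart. Over all genes, 1 of 20950 passed the threshold of an adjusted p under 0.05.

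The share of the RNA taken by the ER genes as a group overlapped between the genotypes. Their summed level was 6435 and 8276 TPM in the knockouts, 7356 ± 1302 (SD, n = 2), against 9396 and 7027 TPM in the controls, 8211 ± 1675 (SD, n = 2). The lowest sum was that of knockout 1 and the highest that of control 1, and the 2 groups overlapped. The sum equals 0.644% and 0.828% of all TPM in the knockouts, against 0.940% and 0.703% in the controls. The chaperones made up more than any other role in each library, with 3572 and 4741 TPM in the knockouts, against 5723 and 4151 TPM in the controls. ER-associated degradation had the lowest sum and the least spread, with 332 and 359 TPM in the knockouts, against 345 and 348 TPM in the controls.

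**Figure D1:**
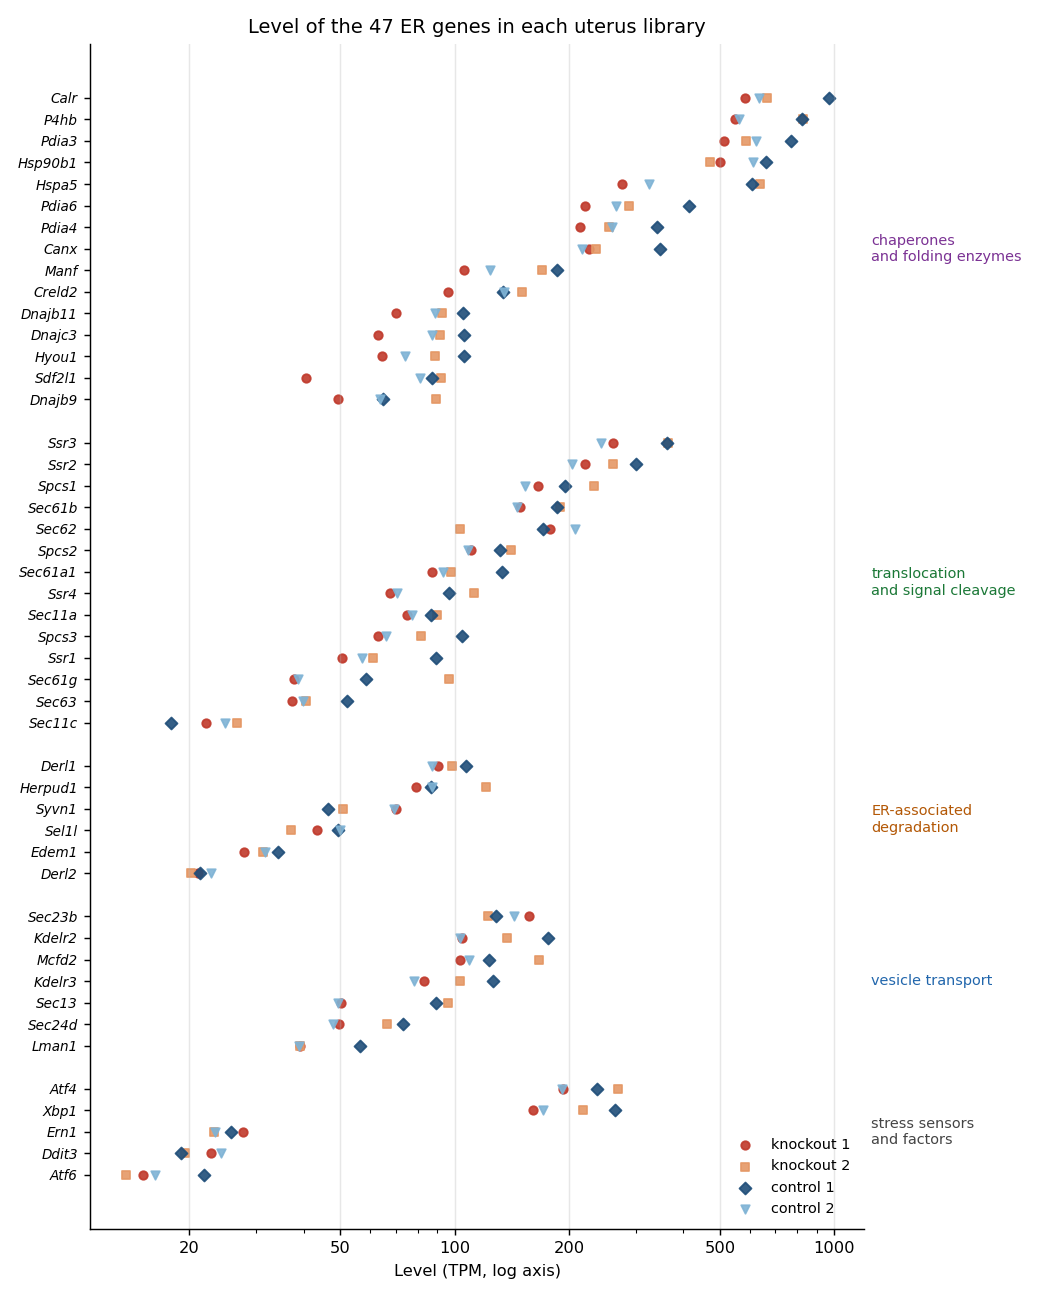
Level of each of the 47 genes in TPM on a log axis, with 1 point per library (circles and squares for knockouts 1 and 2, diamonds and triangles for controls 1 and 2) and genes ordered by mean level within each role. Calr had the highest mean and Atf6 the lowest, and for most genes the points of the 2 groups interleave.

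By mean TPM the 5 most abundant genes were Calr, P4hb, Pdia3, Hsp90b1 and Hspa5, all of the folding group. Calr, which encodes the lectin chaperone calreticulin, stood at 581 and 666 TPM in the knockouts, against 967 and 632 TPM in the controls. P4hb, which encodes a protein disulfide isomerase that also serves collagen prolyl hydroxylation, stood at 549 and 828 TPM, against 823 and 563 TPM in the controls. In both genes control 1 exceeded control 2 and knockout 2 exceeded knockout 1. Differences between neighbours in this order were not tested. The lowest levels were those of Atf6, Derl2 and Ddit3, with Atf6 at 15.1 and 13.6 TPM in the knockouts, against 21.8 and 16.2 TPM in the controls.

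No ER gene passed the test between genotypes. Of the 47, 0 were higher and 0 were lower at an adjusted p under 0.05 in edgeR's quasi-likelihood test with Benjamini-Hochberg adjustment, where 0.00477% of all genes tested were called. At an unadjusted p under 0.05, the count was 0 of 47, where 3.01% of all genes tested were under it, 1.22% higher and 1.79% lower. DESeq2 and limma-voom likewise called 0 of the 47, and 0 had an unadjusted p under 0.05 in either, against backgrounds of 0.396% and 0% called and 2.14% and 2.87% at the unadjusted level. The median log2 fold change, knockout over control, was −0.04 for the 47 genes and 0.01 for all genes tested. There were 22 genes above 0 and 25 below it, with values from −0.39 for Sec62 to 0.58 for Sec61g. For 36 of the 47, the 95% interval of the fold change lay within 2-fold in either direction, which held for 45.6% of all genes tested. For the other 11 genes the interval does not exclude a 2-fold difference.

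The knockouts lay below both controls in 3 of the 47 genes and above them in 1. In all, 4 of the 47 did not overlap, where over all genes tested the shares were 13.1% below, 12.2% above and 25.3% in either direction. The 4 genes were Hsp90b1, Sel1l and Atf6 on the lower side and Ern1 on the higher. An exact permutation test of 2 against 2 libraries cannot give a two-sided p under 0.333, so none was run on single genes. On the TPM scale 7 of the 47 did not overlap, all with the knockouts below the controls (Hsp90b1, Sel1l, Atf6, Pdia3, Pdia4, Derl2 and Edem1). In either direction, 23.8% of all genes did not overlap, or 23.3% of those with a mean of at least 1 TPM. The share below alone was not computed on this scale. The median log2 fold change over all genes was −0.05 with log2(TPM + 1), against 0.01 in the main fit. With fewer libraries groups overlap less often by construction: the count was 26 without knockout 1 (71% of all genes), 36 without knockout 2 (61.2%), 14 without control 1 (62.2%) and 25 without control 2 (56.8%). An unadjusted p under 0.05 in edgeR was then reached by 4 of the 47 without knockout 1 (8.24% of all genes), 1 without knockout 2 (2.96%), 0 without control 1 (3.29%) and 0 without control 2 (3.42%), with the lone library of a group assumed to vary like the 2 of the other, and an adjusted p under 0.05 by 0 in each case.

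**Figure D2:**
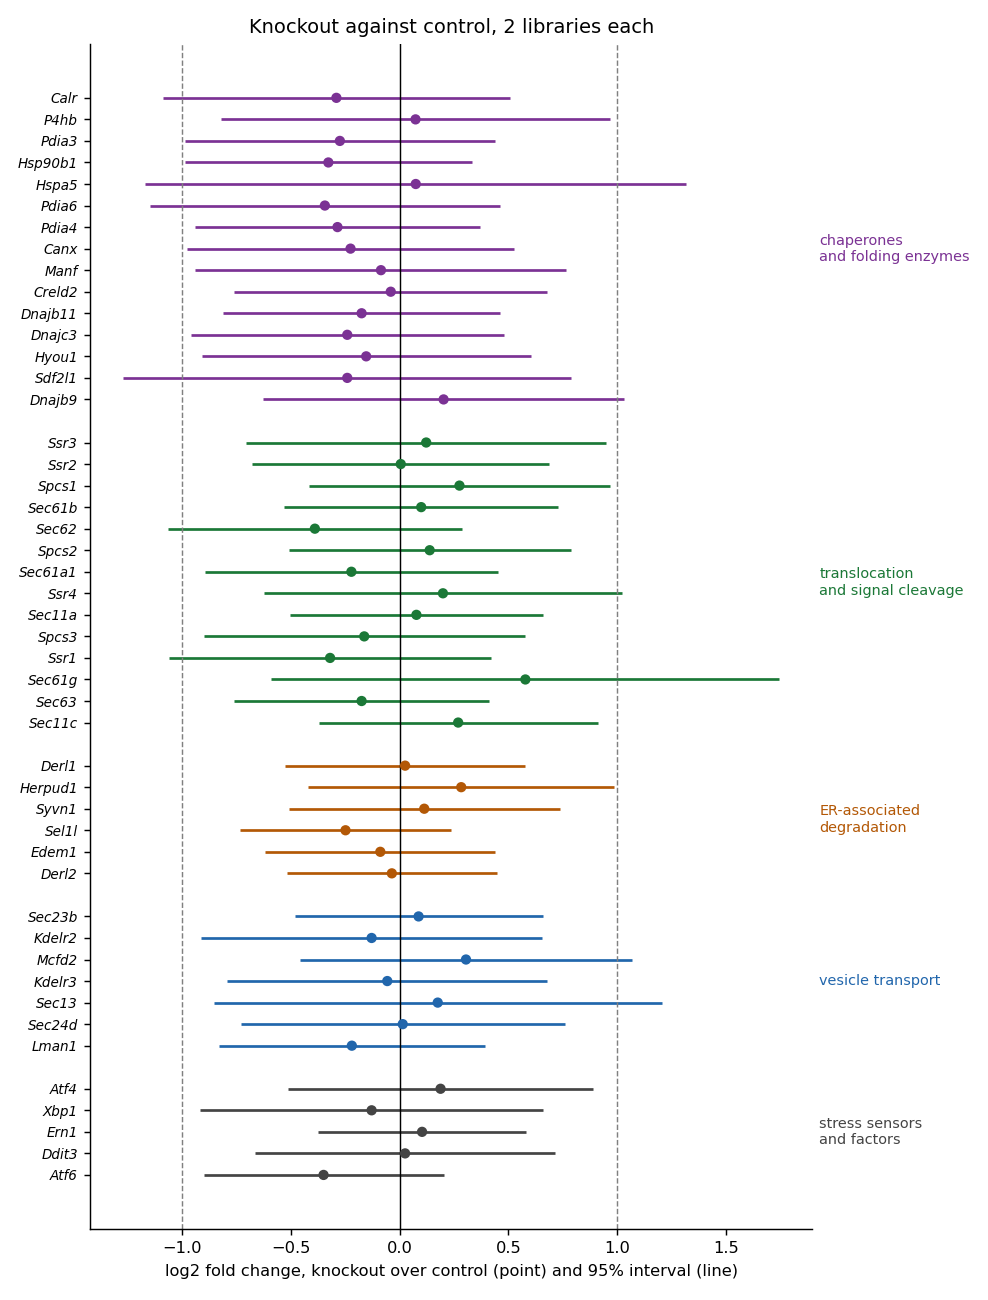
Log2 fold change of each gene, knockout over control, with its 95% interval from the edgeR fit (n = 2 libraries per group), coloured by role, and dashed lines at a 2-fold change in either direction. Every interval includes 0, and 36 of the 47 lie between the dashed lines.

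Among the chaperones and folding enzymes, 12 of 15 had a log2 fold change below 0 and the median was −0.23, yet 0 passed the test. The median was 0.10 without knockout 1 and 0.03 without control 1, and −0.53 and −0.38 without knockout 2 and control 2. Hspa5 (ENSMUSG00000026864), which encodes BiP, the HSP70 of the ER that also holds the stress sensors inactive, stood at 353 and 942 CPM in the knockouts, against 803 and 428 CPM in the controls. The groups overlapped fully, with both extremes in the knockouts, and the log2 fold change was 0.07 (SE 0.52, 95% interval −1.17 to 1.32, unadjusted p = 0.892 in edgeR). Hsp90b1, which encodes the ER form of HSP90, GRP94, stood at 612 and 663 CPM in the knockouts, against 834 and 767 CPM in the controls. Both knockouts lay below both controls, and the log2 fold change was −0.33 (SE 0.28, 95% interval −0.99 to 0.33, unadjusted p = 0.277 in edgeR).

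Of the 6 lectin chaperone and disulfide isomerase genes, 5 had log2 fold changes between −0.34 and −0.23. Calr averaged 588 ± 116 CPM in knockouts and 719 ± 214 CPM in controls (SD, n = 2 each), a log2 fold change of −0.29. Canx, which encodes its membrane-bound relative calnexin, averaged 353 ± 45.5 and 413 ± 136 CPM in the same order, a log2 fold change of −0.23. Pdia3, the isomerase that works with both lectins, stood at 488 and 641 CPM in the knockouts, against 756 and 611 CPM in the controls, a log2 fold change of −0.28. Pdia4 and Pdia6 had log2 fold changes of −0.29 and −0.34, and the remaining gene, P4hb, had one of 0.07. In each of these 6 genes control 1 was the higher control and knockout 2 the higher knockout.

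The co-chaperones and small luminal proteins had some of the widest gaps between the 2 knockouts. Sdf2l1, which encodes a partner of BiP and its co-chaperone ERdj3, stood at 13.6 and 35.6 CPM in the knockouts, against 30.1 and 28.0 CPM in the controls. Dnajb9, which encodes the BiP co-chaperone ERdj4, stood at 38.0 and 79.6 CPM, against 51.6 and 50.6 CPM in the controls. Creld2, a stress-induced isomerase-like gene, stood at 39.8 and 71.8 CPM in the knockouts, against 57.4 and 57.3 CPM in the controls. In all 3 genes the 2 controls nearly coincided and lay between the 2 knockouts. Their log2 fold changes were −0.24, 0.20 and −0.04. Manf, a secreted stress-induced factor that binds BiP, averaged 161 ± 68.2 CPM in knockouts and 171 ± 48.2 CPM in controls (SD, n = 2 each). The BiP co-chaperones Dnajb11 and Dnajc3 and the HSP70-like exchange factor gene Hyou1 had log2 fold changes of −0.18, −0.24 and −0.15.

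Genes of translocation and signal cleavage had a median log2 fold change of 0.09, with 9 of 14 above 0 and 0 past the test. Sec61g, which encodes the gamma subunit of the SEC61 channel, had the highest value of the 47 at 0.58 (SE 0.49, 95% interval −0.59 to 1.75, unadjusted p = 0.279 in edgeR). It stood at 28.1 and 83.4 CPM in the knockouts, against 44.9 and 29.8 CPM in the controls, so knockout 2 alone lay above the rest. The other channel subunits, Sec61a1 and Sec61b, had log2 fold changes of −0.22 and 0.10. Sec62, whose product assists entry of small proteins after their synthesis, had the lowest value of the 47 at −0.39 (SE 0.28, 95% interval −1.07 to 0.29, unadjusted p = 0.213 in edgeR). It stood at 234 and 157 CPM in the knockouts, against 232 and 281 CPM in the controls. Sec62 differed from most of its group in that knockout 1 exceeded knockout 2 and control 2 exceeded control 1. Sec63, whose product works with that of Sec62 and binds BiP, had a log2 fold change of −0.18.

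The 4 subunits of the translocon-associated complex TRAP had log2 fold changes of −0.32 for Ssr1, 0.005 for Ssr2, 0.12 for Ssr3 and 0.20 for Ssr4. Ssr3 was the most abundant gene of the role, at 261 and 364 TPM in the knockouts, against 363 and 244 TPM in the controls. Of the signal peptidase genes, the accessory subunits Spcs1, Spcs2 and Spcs3 had log2 fold changes of 0.28, 0.14 and −0.16. The catalytic subunits Sec11a and Sec11c stood at 0.08 and 0.27. Sec11c was at 45.7 and 63.7 CPM in the knockouts, against 38.1 and 52.7 CPM in the controls, the only gene of this role in which control 1 was the lower control while knockout 2 was the higher knockout. Calr and Spcs2 have annotated pseudogenes, Calr-ps and Spcs2-ps, which held at most 1 and 7 counts in any library.

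ER-associated degradation genes had a median log2 fold change of −0.01, 3 above 0 and 3 below. Sel1l, which encodes the scaffold of the HRD1 ubiquitin ligase, stood at 112 and 111 CPM in the knockouts, against 132 and 133 CPM in the controls. Libraries within each group nearly coincided and the groups did not overlap, with a log2 fold change of −0.25 (SE 0.20, 95% interval −0.74 to 0.24, unadjusted p = 0.262 in edgeR). Syvn1, which encodes HRD1 itself, stood at 103 and 86.4 CPM in the knockouts, against 70.3 and 105 CPM in the controls. Herpud1, a stress-induced partner of that ligase, stood at 55.8 and 98.6 CPM in the knockouts, against 63.3 and 63.5 CPM in the controls, a log2 fold change of 0.28. Edem1, which encodes a mannose-trimming lectin, and Derl1 and Derl2, which encode membrane proteins of the exit channel, had log2 fold changes of −0.09, 0.02 and −0.04.

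The vesicle transport genes had a median log2 fold change of 0.01. Sec13, which encodes an outer subunit of the COPII coat, stood at 48.2 and 107 CPM in the knockouts, against 88.7 and 48.9 CPM in the controls, so the groups overlapped over their whole range. Its log2 fold change was 0.18 (SE 0.43). The inner coat genes Sec23b and Sec24d had log2 fold changes of 0.09 and 0.01. Mcfd2 and Lman1 encode the 2 partners of the cargo receptor that carries coagulation factors V and VIII, and they stood at 0.30 and −0.22. Mcfd2 averaged 127 ± 54.2 CPM in knockouts and 103 ± 9.21 CPM in controls, and Lman1 averaged 113 ± 11.5 and 131 ± 34.4 CPM in the same order (SD, n = 2 each). The KDEL receptor genes Kdelr2 and Kdelr3, whose products return luminal chaperones to the ER, had log2 fold changes of −0.13 and −0.06.

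The stress sensors and factors had a median log2 fold change of 0.03. Atf6, the sensor that becomes a transcription factor after cleavage in the Golgi, had the smallest p of all 47 genes. It stood at 42.2 and 43.8 CPM in the knockouts, against 63.0 and 46.6 CPM in the controls, with a log2 fold change of −0.35 (SE 0.23, 95% interval −0.90 to 0.20, unadjusted p = 0.177 and adjusted p = 1 in edgeR). Ern1, which encodes the sensor and nuclease IRE1, stood at 68.4 and 66.3 CPM in the knockouts, against 65.9 and 59.4 CPM in the controls. Both knockouts lay above both controls by a narrow margin, with a log2 fold change of 0.10 (SE 0.20). The groups overlapped with upper-quartile factors, with no low-count filter and in TPM, where Ern1 stood at 27.6 and 23.2 in the knockouts, against 25.8 and 23.3 in the controls. Xbp1, whose transcript IRE1 splices, averaged 202 ± 63.1 CPM in knockouts and 221 ± 67.8 CPM in controls (SD, n = 2 each). Counts per gene do not separate its spliced and unspliced forms, so activity of IRE1 was not measured. Atf4, which is regulated largely at translation, averaged 180 ± 59.3 CPM in knockouts and 158 ± 23.4 CPM in controls (SD, n = 2 each). Ddit3, which encodes the stress factor CHOP, stood at 11.8 and 11.7 CPM in the knockouts, against 10.2 and 12.9 CPM in the controls.

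Most of the ER genes shared an order of the libraries within each genotype. Knockout 2 exceeded knockout 1 in 41 of the 47 genes and control 1 exceeded control 2 in 39, against 48.45% and 49.95% of all genes tested. Both held in 38 of the 47, or 80.9%, against 33.4% of all genes tested. At the median gene of the 47 the ratio was 1.47 for knockout 2 over knockout 1 and 1.28 for control 1 over control 2, whereas over all genes tested the medians were 0.985 and 1. In 45 of the 47 genes at least 1 of these ratios, on the log2 scale, was larger than the fold change between genotypes, and in 35 both were. These were 95.7% and 74.5% of the 47, against 84.6% and 52.1% of all genes tested. Such gaps were thus common in these libraries, and more frequent among the 47. These counts describe 4 libraries and carry no test.

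**Figure D3:**
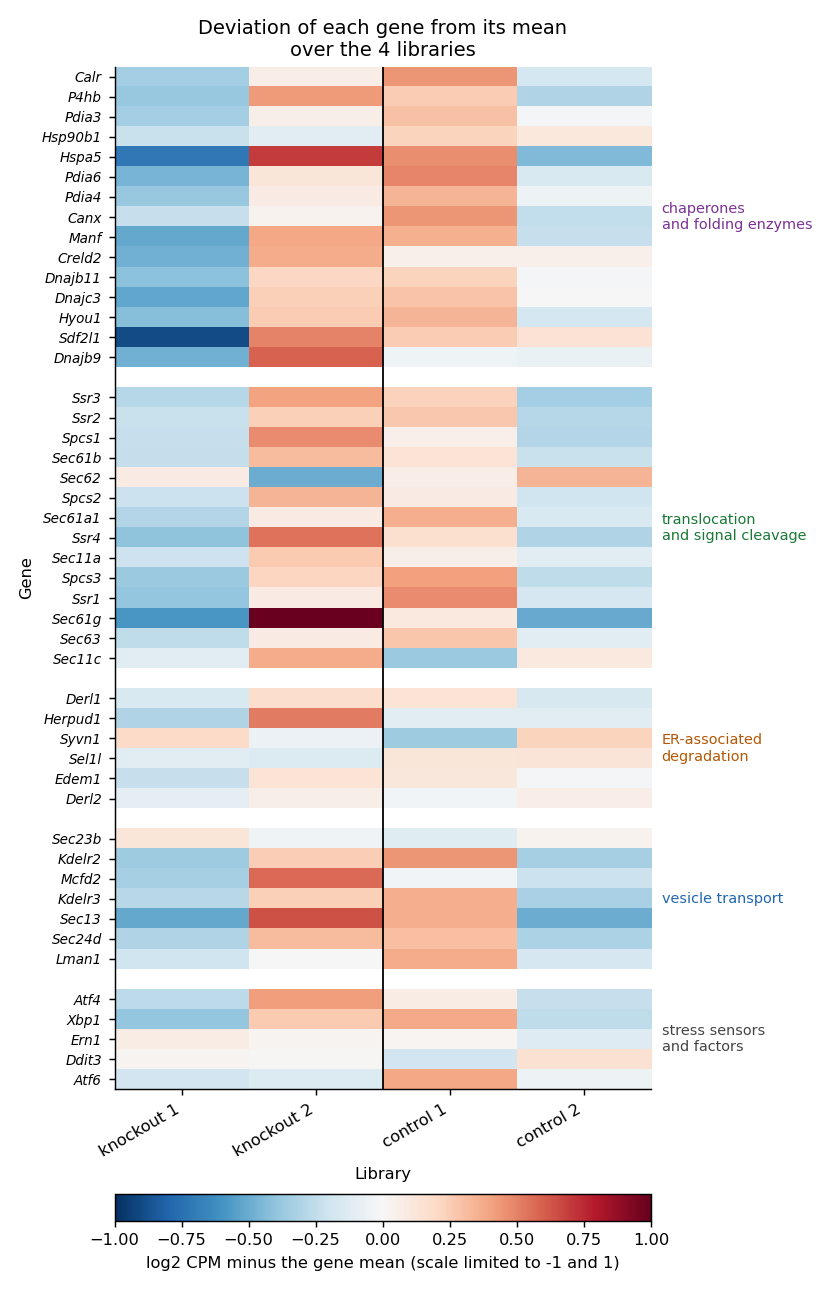
Deviation of each gene from its own mean over the 4 libraries, in log2 CPM, with knockout libraries in the left columns and controls in the right. All 15 chaperones were higher in knockout 2 than in knockout 1 and higher in control 1 than in control 2, while of the 6 degradation genes only Edem1 and Derl1 were.

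The chaperones carried this pattern in full, with 15 of 15 in both pairs and median ratios of 1.60 within the knockouts and 1.31 within the controls. Hspa5 had ratios of 2.67 and 1.88. Translocation genes had both directions in 12 of 14, with Sec62 and Sec11c outside, and transport genes in 6 of 7, with Sec23b outside. Degradation genes had them in only 2 of 6, Edem1 and Derl1, with median ratios of 1.18 and 0.995. Of the stress genes, Xbp1 had ratios of 1.57 and 1.55 and Atf4 of 1.61 and 1.23, whereas Ern1 had 0.969 and 1.11, Ddit3 0.992 and 0.787 and Atf6 1.04 and 1.35.

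**Figure D4:**
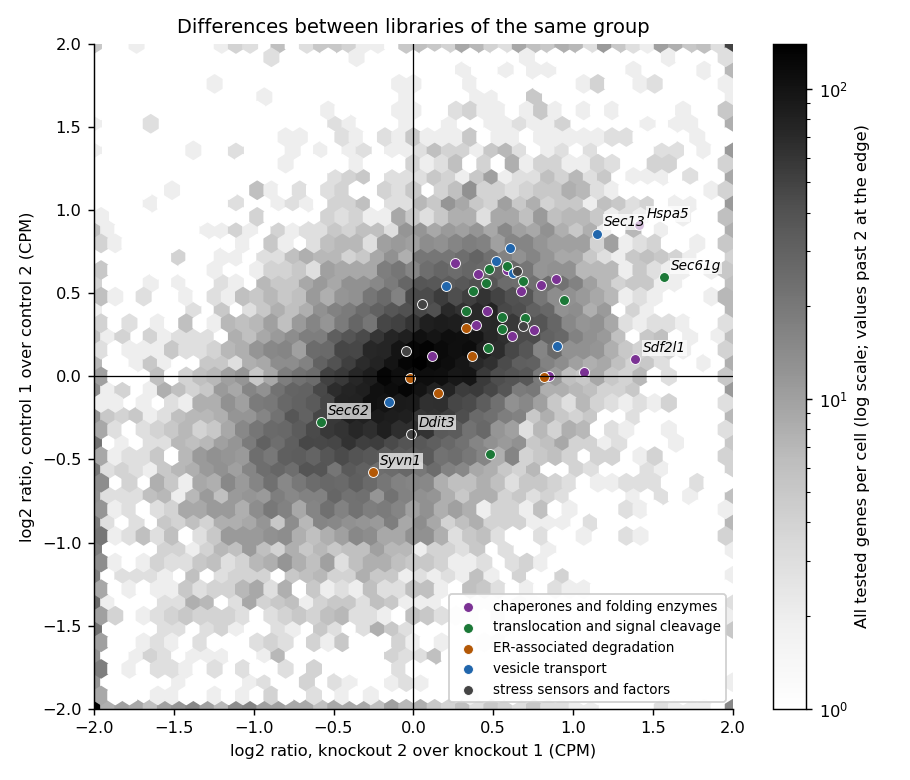
Log2 ratio of knockout 2 over knockout 1 (x axis) against that of control 1 over control 2 (y axis), with the 47 genes as points coloured by role over the density of all tested genes in grey. Of the 47 points, 38 lie in the upper right, where 33.4% of all genes tested lie.

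The 8 genes with the ER stress element shown above had median ratios of 1.41 within the knockouts and 1.37 within the controls, with 7 of 8 in both directions and Syvn1 in neither. The 29 genes with a promoter sequence but without the element had medians of 1.47 and 1.23, with 22 of 29 in both directions. Between genotypes, the median log2 fold change was −0.23 for the 8 genes and 0.07 for the 29. Since 7 of the 8 are chaperones, these values are not separate from those of that role.

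Markers of other cell types also differed between libraries of one genotype. Smooth muscle markers (8 of 8 in the TPM table) summed to 6689 and 10045 TPM in knockouts 1 and 2, against 8132 and 2579 TPM in controls 1 and 2. Skeletal muscle markers (5 of 5) summed to 152 and 267 TPM in the knockouts, against 235 and 55.2 TPM in the controls. Both sums thus had the same order within each genotype as the ER genes. Across genotypes, control 2 had 2579 TPM of smooth muscle markers and an ER gene sum of 7027 TPM. Knockout 1 had 6689 TPM of smooth muscle markers and an ER gene sum of 6435 TPM. This sets a single pair of libraries side by side. Acta1 made up most of the skeletal muscle sum, with 113 and 225.5 TPM in the knockouts, against 198 and 30.3 TPM in the controls. Ckm and Tnni2 shared its order. Tnnt3 was lower in knockout 2 than in knockout 1, and Mylpf was lower in control 1 than in control 2. Stromal markers (9 of 9) summed to 3474 and 3339 TPM in the knockouts, against 5098 and 3003 TPM in the controls. In CPM the 9 did not share an order. Col1a1, Col3a1, Col6a3, Dcn and Lum were higher in knockout 2 than in knockout 1 and in control 1 than in control 2. For Col1a1 the gap between the knockouts was narrow, at 1654 and 1731 CPM. Pdgfra, Hoxa10, Hoxa11 and Hand2 were lower in knockout 2 than in knockout 1. Epithelial markers (8 of 8) summed to 3314 and 3003 TPM in the knockouts, against 2638 and 3772 TPM in the controls. The 8 did not share an order: Cldn3 held 1316 and 750 TPM of that sum in the knockouts, against 816 and 1475 TPM in the controls, whereas Krt19 held 330 and 523 TPM, against 177 and 379 TPM in the controls, and Epcam and Cdh1 were higher in control 1 than in control 2. The luminal list (6 of 6) had 647 and 633 TPM in the knockouts, against 418 and 810 TPM in the controls. Endothelial markers (5 of 5) had 529 and 279 TPM in the knockouts, against 447 and 420 TPM in the controls. Adipocyte markers (4 of 5) had at most 24.2 TPM in any library. The part of these cell types in the ER gene values was not tested.

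**Figure D5:**
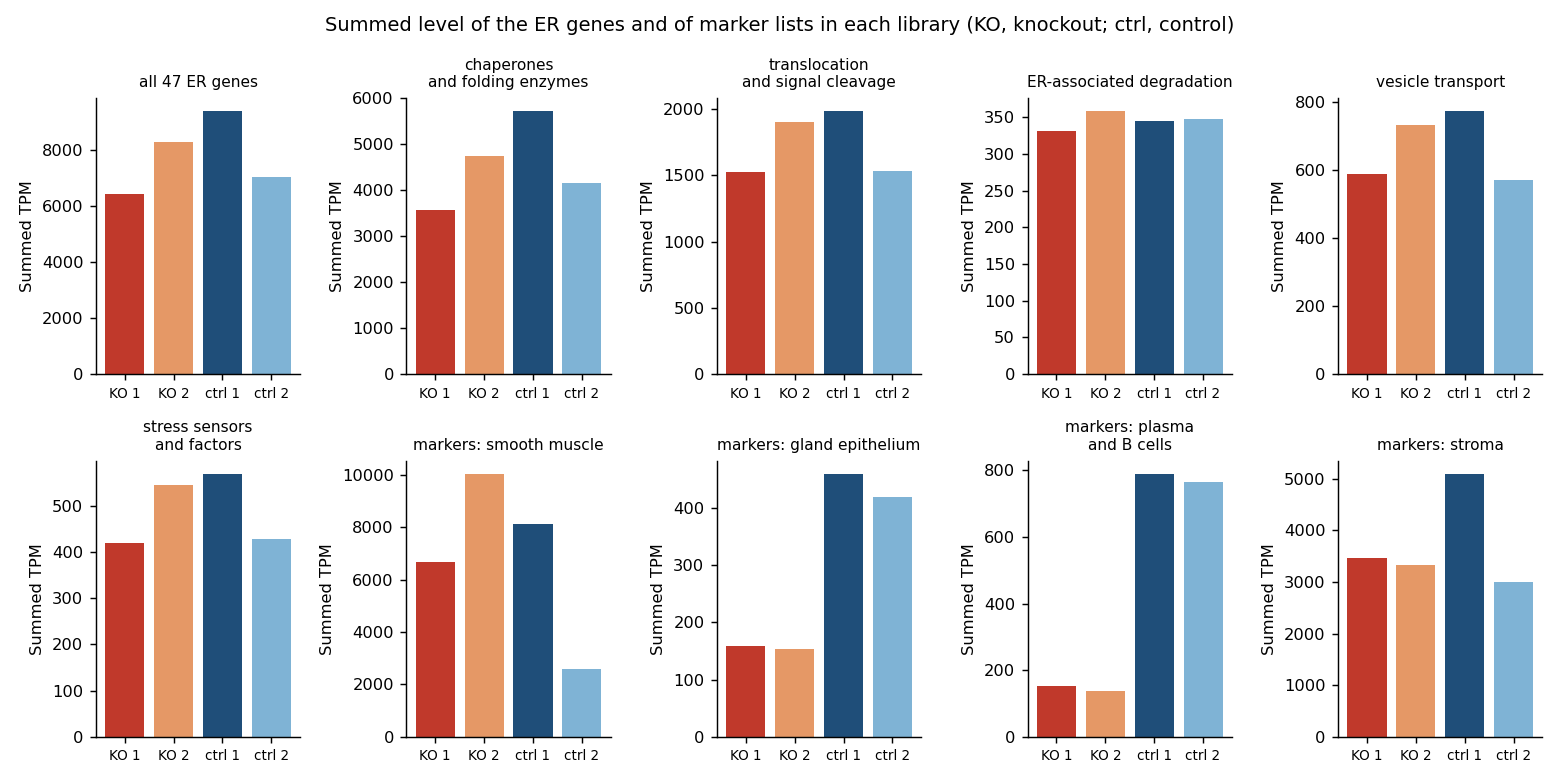
Summed TPM in each library for all 47 ER genes, for each role and for 4 marker lists, with knockouts 1 and 2 on the left of each panel, controls 1 and 2 on the right, and each axis starting at 0. Knockout 2 and control 1 were the higher library of their genotype for the ER genes and for smooth muscle, while gland and plasma cell marker sums were lower in both knockouts than in both controls.

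Gland markers (9 of 9, with Prss29 at 0 in both knockouts) and plasma and B cell markers (6 of 7) had sums that did not overlap between the genotypes, as did macrophage markers (7 of 7), at 754 to 764 TPM in knockouts, against 1027 to 1400 TPM in controls. Within the gland list Cxcl15, Sox9 and, in TPM, Foxa2 did not follow the sum. Cxcl15 stood at 35.7 and 72.6 CPM in the knockouts, against 29.5 and 38.6 CPM in the controls. Sox9 stood at 32.7 and 10.1 CPM, against 13.3 and 35.8 CPM in the controls. Foxa2 stood at 18.8 and 6.63 TPM in the knockouts, against 18.3 and 21.25 TPM in the controls. In CPM its groups narrowly missed overlap, at 13.51 and 5.489 in the knockouts, against 13.53 and 15.7 in the controls. Prss29 is the locus that carries Cre in the knockouts, so its 0 cannot be read as gland content alone. Proliferation markers (8 of 8) stood at 189 to 200 TPM in knockouts, against 449 and 285 TPM in controls. Glands and plasma cells are secretory cells with much ER. The summed level of the 47 genes overlapped between genotypes, and the part of these cells in it was not tested.

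A wider set of 107 genes of the same pathway, in 8 lists, showed the same absence of calls. Of these, 106 were tested, 0 passed the threshold and 1 had an unadjusted p under 0.05, on the higher side, where 1.22% of all genes tested stood. The remaining gene, the epithelial IRE1 paralog Ern2, had 0 counts in all 4 libraries. The median log2 fold change was −0.06 over the 106, and knockout 2 exceeded knockout 1 while control 1 exceeded control 2 in 80 of them, or 75.5%.

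In the list of the PERK arm and ATF4 targets, 0 of 18 passed and the median was −0.09. Slc7a11, which encodes the cystine transporter subunit xCT and is an ATF4 target, stood at 29.3 and 20.7 CPM in the knockouts, against 4.78 and 12.9 CPM in the controls. Both knockouts lay above both controls, with a log2 fold change of 1.50 (SE 0.48, 95% interval 0.35 to 2.65, unadjusted p = 0.0181 and adjusted p = 1 in edgeR). The lipoprotein receptor gene Vldlr stood at 134 and 209 CPM in the knockouts, against 105 and 142 CPM in the controls. Its groups overlapped, with a log2 fold change of 0.47 (unadjusted p = 0.160 in edgeR).

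Further degradation genes had a median of 0.005, with 0 of 16 past the threshold. Derl3, a derlin known for high expression in plasma cells, stood at 0.967 and 0.891 CPM in the knockouts, against 1.30 and 2.96 CPM in the controls, a log2 fold change of −1.19 (SE 0.57, 95% interval −2.56 to 0.17, unadjusted p = 0.0771 in edgeR). Igkc and Jchain, the most abundant plasma and B cell markers, stood at 124 and 107 TPM and at 19.5 and 29.3 TPM in the knockouts, against 667 and 632 TPM and 117 and 124 TPM in the controls. Their part in the Derl3 value was not tested. Sdf2, the paralog of Sdf2l1, had a log2 fold change of 0.32.

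The oligosaccharyltransferase list, the enzyme that adds N-glycans to entering proteins, had a median of −0.12 with 0 of 12 past the threshold. Magt1, an oxidoreductase subunit, stood at 69.4 and 69.7 CPM in the knockouts, against 101 and 85.2 CPM in the controls, a log2 fold change of −0.42 (unadjusted p = 0.0853 in edgeR), and the subunit gene Dad1 had one of −0.32. For the signal recognition particle the median was −0.003 over 8 genes, with Srp14 at 0.37 and Srp19 at −0.18. The ER oxidation and glycan control list had a median of 0.006 over 16 genes, with the thiol oxidase gene Ero1b at 0.40 and the glycoprotein folding sensor gene Uggt1 at −0.27. For ATF6 processing and related factors it was −0.003 over 7 genes, with Wfs1 at 0.24 and the ATF6 protease gene Mbtps2 at −0.12.

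The COPII list had a median of −0.10 over 14 genes, with the coat scaffold gene Sec16b at −0.45 and the cargo receptor gene Mia3 at −0.31. The COPI list had −0.06 over 15 genes, with the coat subunit genes Copa at −0.40 and Cope at 0.23. Both knockouts lay below both controls in 3 of the 14 COPII genes and above them in 1. In the COPI list this held for 3 of 15 below and 1 above. Over all genes tested the shares were 13.1% below and 12.2% above. Sec16b, Mia3 and Copa were among those below and Cope was the COPI gene above, but these were named for their small p. Copa stood at 258 and 290 CPM in the knockouts, against 418 and 303 CPM in the controls, and Cope at 121.2 and 146.1 CPM in the knockouts, against 120.5 and 107.5 CPM in the controls. None of these lists had a gene past the threshold.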

How the data were processed

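RNA was measured in 4 libraries of whole mouse uterus. The submitters' processing notes name Trimmomatic, STAR and featureCounts, and GRCm39 as the build; their versions, and whether counting used strand, the sources used here do not give. The authors deposited raw counts for 57186 genes with gene lengths in bases (another column of the same tables), and TPM values for 19991 of them. TPM in the deposited table equals count over length, rescaled over the genes listed. Without a strand setting, overlapping genes cannot be told apart.

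Counts of all genes were tested with edgeR 4.0.16 in R 4.3.3 (quasi-likelihood F-test, group as the only term, TMM factors, filterByExpr with minimum count 10, Benjamini-Hochberg, threshold 0.05), keeping 20950 genes with 2 residual degrees of freedom. Standard errors are the fold change over the root of F. Alternatives used DESeq2 1.42.0, limma 3.58.1 and other settings. The members and lists were chosen with earlier results of these data known. Named genes are the 47, Pgr, Prss29, the 2 smallest p of each pathway list and abundant markers of lists set beside a result. Calr-ps, Spcs2-ps, Cldn3, Krt19, Epcam, Cdh1, Cxcl15 and Sox9 were named after their values were seen. So were the stromal, skeletal muscle and gland markers whose order between libraries is described.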

Additional observations from a re-analysis of the deposited data

How the results depend on the processing

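Under RLE and upper-quartile factors, DESeq2, limma-voom, no low-count filter, a stricter one (minimum count 50), limma on log2(TPM + 1) with and without a minimum mean of 1 TPM, log2(TPM + 0.1), the replicate block and each library left out, 0 of the 47 genes passed the threshold. The median log2 fold change of the 47 ran from −0.10 to −0.03 with all libraries and from −0.35 to 0.17 with 1 library left out: 0.15 without knockout 1, −0.35 without knockout 2, 0.17 without control 1 and −0.25 without control 2. The median ran from −0.25 to 0.32 for translocation, −0.16 to 0.06 for degradation, −0.33 to 0.35 for transport and −0.19 to 0.19 for the stress genes with 1 library left out. At an unadjusted p under 0.05 the count was 0 to 4 with 1 library left out. It was 4 (Herpud1, Sec61g, Dnajb9 and Mcfd2) without knockout 1, where 8.24% of all genes stood there, and 1 (Sdf2l1) without knockout 2, where 2.96% did. Groups did not overlap in 7 genes with log2(TPM + 1), with and without the minimum mean, and in 7 with log2(TPM + 0.1), where 23.8% of all genes did not (23.3% with the minimum mean). With 1 library left out the count ran from 14 to 36, against 56.8% to 71% of all genes. Of 705 single-gene values under 15 settings, 23 moved by more than the spread between replicates (the SD within groups, pooled), 19 of them with a library left out. Leaving out 1 library cannot move a group mean of log2 values by more than this spread. The low count with a library left out therefore does not show that the values are stable.

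Over all genes, the 1 call became 90 with DESeq2, 0 with limma-voom, 54 with no filter, 0 with the stricter one, 3 and 6 with log2(TPM + 1) without and with the minimum mean, 6 with log2(TPM + 0.1) and 16 to 49 with 1 library left out. Same-numbered libraries deviated from their group means with a correlation of −0.444 across genes, so knockout 1 deviated with control 2 and knockout 2 with control 1. The correlation does not show whether the numbers pair the samples, since genes vary together within a library. The replicate block gave 0 of 47 calls and 32 over all genes. A crossed pairing, added after seeing the data, gave 0 and 37. Each of the 47 genes had at least 328 counts in every library, and lower depths were not tried.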
